A study of Mus musculus with 10 samples.

Results

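The genes described here encode parts of the unfolded protein response of the endoplasmic reticulum (ER), read in mouse kidney with and without a working Ehhadh gene. They are the 10 rows of the count table named Hspa5, Hsp90b1, Dnajb9, Xbp1, Ern1, Atf6, Herpud1, Sdf2l1, Pdia4 and Calr, out of 24062 rows in all. They were chosen by symbol, and all 10 passed the filter on low counts that left 15547 genes for testing. Polyadenylated RNA of kidney was sequenced from 10 mice, 1 library per animal. The knockout group (KO) held 4 Ehhadh KO mice of the C57BL/6N strain and the wild-type group (WT) 4 mice of the same strain, all adult males by the series' design text. Single WT mice of the strains 129S2_SvPasCrl and DBA_2J stood beside them, and the design text calls neither of them KO. The labels name no treatment and no time of sampling, and do not say how the Ehhadh allele was made or on which background. Ehhadh encodes the L-bifunctional enzyme of peroxisomal fatty acid oxidation.

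The ER folds secreted and membrane proteins. When unfolded proteins build up there, the membrane sensors IRE1 (encoded by Ern1), ATF6 and PERK signal to the nucleus. Active ATF6 and the spliced form of XBP1 then raise genes of chaperones and of ER-associated degradation, the route that returns misfolded proteins to the cytosol. Kidney tubule cells make large amounts of membrane transporters, and this response is known to be set off in them by toxic and ischaemic injury. Counts summed over a gene do not separate spliced from unspliced Xbp1 RNA, and the activity of IRE1 or the cleavage of ATF6 cannot be read from them.

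A regulatory sequence ties several of these genes together, the ER stress response element (ERSE), at which ATF6 acts with the CCAAT-binding factor NF-Y. Promoter windows from RefSeq (build GRCm38.p6, 250 bases before to 50 bases after a gene's start) were held for 9 of the 10 genes, Atf6 being the exception. Both strands were searched for ERSE (CCAAT, any 9 bases, then CCACG) and for ERSE-II (ATTGG, any 1 base, then CCACG), and no 2 of the matches overlapped. Exact ERSE matches lay in 3 of the 9 genes, Hspa5, Hsp90b1 and Calr, and an exact ERSE-II match in Herpud1. Among all 32851 promoter windows of the same length, 0.119% held ERSE and 0.0365% held ERSE-II. The motifs were chosen because they are known in genes of this response. The matches are therefore background, and their share among these genes was not tested. The matches are shown with 20 bases on each side, 5′ to 3′ on the gene's strand. They are shown because 3 of these genes, Hspa5, Hsp90b1 and Calr, carry the pattern between animals described further on. Pdia4 and Sdf2l1 carry that pattern too without an exact match to either motif, and Herpud1 holds ERSE-II without carrying it. Whether the motifs have a part in that pattern was not tested. Capitals mark the motif, which reads in reverse complement in Calr and in the second site of Hsp90b1.
Hspa5: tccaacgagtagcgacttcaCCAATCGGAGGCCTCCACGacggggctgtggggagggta
Hsp90b1 site 1: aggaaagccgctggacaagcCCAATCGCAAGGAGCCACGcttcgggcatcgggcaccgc
Hsp90b1 site 2: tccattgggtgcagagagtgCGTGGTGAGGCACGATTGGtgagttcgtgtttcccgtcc
Calr: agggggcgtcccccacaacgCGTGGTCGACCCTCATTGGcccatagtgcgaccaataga
Herpud1: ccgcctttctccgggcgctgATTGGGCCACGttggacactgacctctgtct

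The Hspa5 stretch is chr2:34772005-34772063 on the plus strand, with its motif from base −65 to base −47 relative to the start. The Hsp90b1 stretches are chr10:86705618-86705676 and chr10:86705513-86705571 on the minus strand, with motifs from −212 to −194 and from −107 to −89. The Calr stretch is chr8:84847055-84847113 on the minus strand (motif from −162 to −144), and the Herpud1 stretch chr8:94386357-94386407 on the plus strand (motif from −52 to −42). Herpud1 also held the only match among the 9 genes to the C/EBP-ATF element (TGATGNAAN), which factors such as ATF4 bind; 3.95% of all windows held it. None of the 9 held the core TGACGTGG of the unfolded protein response element, found in 0.676% of windows. An absent match says only that these letters are not in this window. The whole Hspa5 window, chr2:34771840-34772139, is printed because Hspa5 is the gene used most often to read this response, with the exact ERSE in capitals.
Hspa5 promoter: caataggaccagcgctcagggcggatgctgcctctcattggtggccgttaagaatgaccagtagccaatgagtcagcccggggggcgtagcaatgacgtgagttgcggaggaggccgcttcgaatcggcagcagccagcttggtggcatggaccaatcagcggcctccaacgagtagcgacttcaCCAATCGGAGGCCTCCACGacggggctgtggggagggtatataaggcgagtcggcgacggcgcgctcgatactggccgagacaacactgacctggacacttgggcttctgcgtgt

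Libraries held 19.79 to 57.25 M (mega) gene counts, and KO libraries were deeper than WT libraries (47.2 ± 4.82 M against 29.8 ± 6.98 M, SD, n = 4 each). Ehhadh, the check of the labels, read 176 to 331 CPM (gene counts per M counts of the library, TMM-scaled) in KO and 2100.2 to 3439 in WT, so each library lay on the side of its label. Kidney markers were read in every library: the sum of 5 proximal tubule genes (Lrp2, Cubn, Slc34a1, Slc5a2 and Aqp1) ran from 7641 to 11271 CPM. The lowest count of a member in any library was 81, for Sdf2l1. Only Pdia4 shared annotated exon bases with another gene, 14 bases with the microRNA gene Mir704. In bulk kidney RNA, a change in the number of cells of a type and a change in RNA per cell cannot be told apart. The titles of 2 KO and 2 WT mice (replicates 3 and 4 of each group) begin with an E and those of the other 2 and 2 do not. The labels do not explain this title form, so differences are also given within each.

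The 10 genes spanned a wide range of levels in WT kidney. Compared per kilobase of annotated exon, Herpud1 and Calr were the most abundant at 206 ± 38.3 and 205 ± 31.8 CPM per kilobase (SD, n = 4). Herpud1 encodes a membrane protein of the degradation complex and Calr the calcium-binding lectin chaperone calreticulin. Hspa5 (the ER Hsp70 chaperone BiP) and Hsp90b1 (the ER Hsp90 chaperone GRP94) followed at 131 ± 31.6 and 117 ± 19.8 CPM per kilobase. The transcription factor gene Xbp1 read 51.9 ± 5.44 and Pdia4, a disulfide isomerase, 39.4 ± 2.42 CPM per kilobase. The BiP co-chaperone gene Dnajb9 (ERdj4) read 25.5 ± 1.06 CPM per kilobase. The lowest were Atf6 at 7.81 ± 0.332, Sdf2l1, which encodes a small ER chaperone partner, at 4.83 ± 2.43, and Ern1 at 3.89 ± 0.363 CPM per kilobase. In this order the ranges of WT libraries overlapped between Herpud1 and Calr, between Hspa5 and Hsp90b1, between Atf6 and Sdf2l1 and between Sdf2l1 and Ern1. The remaining neighbours did not overlap.

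The first comparison asked whether loss of Ehhadh changed these genes. Dnajb9 rose in KO, and no other member passed the test over all genes. At a Benjamini-Hochberg adjusted p under 0.05 in edgeR's quasi-likelihood test, 1 of 10 members was called higher in KO, against 6.32% of all tested genes, and 0 were called lower, against 4.68% of all tested genes. The share of members called higher rests on 1 gene. At an unadjusted p under 0.05, 2 members were higher and none lower in edgeR. Such values were common: over all 15547 tested genes, an unadjusted edgeR p of 0.0458 (Cubn) held rank 3898 from the smallest. DESeq2 called 2 members higher and 0 lower after adjustment, beside 1301 higher and 1087 lower of 15244 genes. The log2 fold changes fitted in edgeR were above 0 for all 10 members, against 48.9% of all tested genes. These signs are not independent, because several members were high in the same libraries, as described below. The median of the members was 0.21, beside −0.01 over all tested genes. That median moved with single libraries: it was 0.05 without KO replicate 4, with 6 of 10 members above 0, and 0.25 without WT replicate 4, with 9 above 0. Without both, an alternative chosen after seeing the data, it was 0.19, with 8 above 0. For 1 of 10 members the libraries of the groups had no overlap, against 17.7% of all tested genes.

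**Figure D1:**
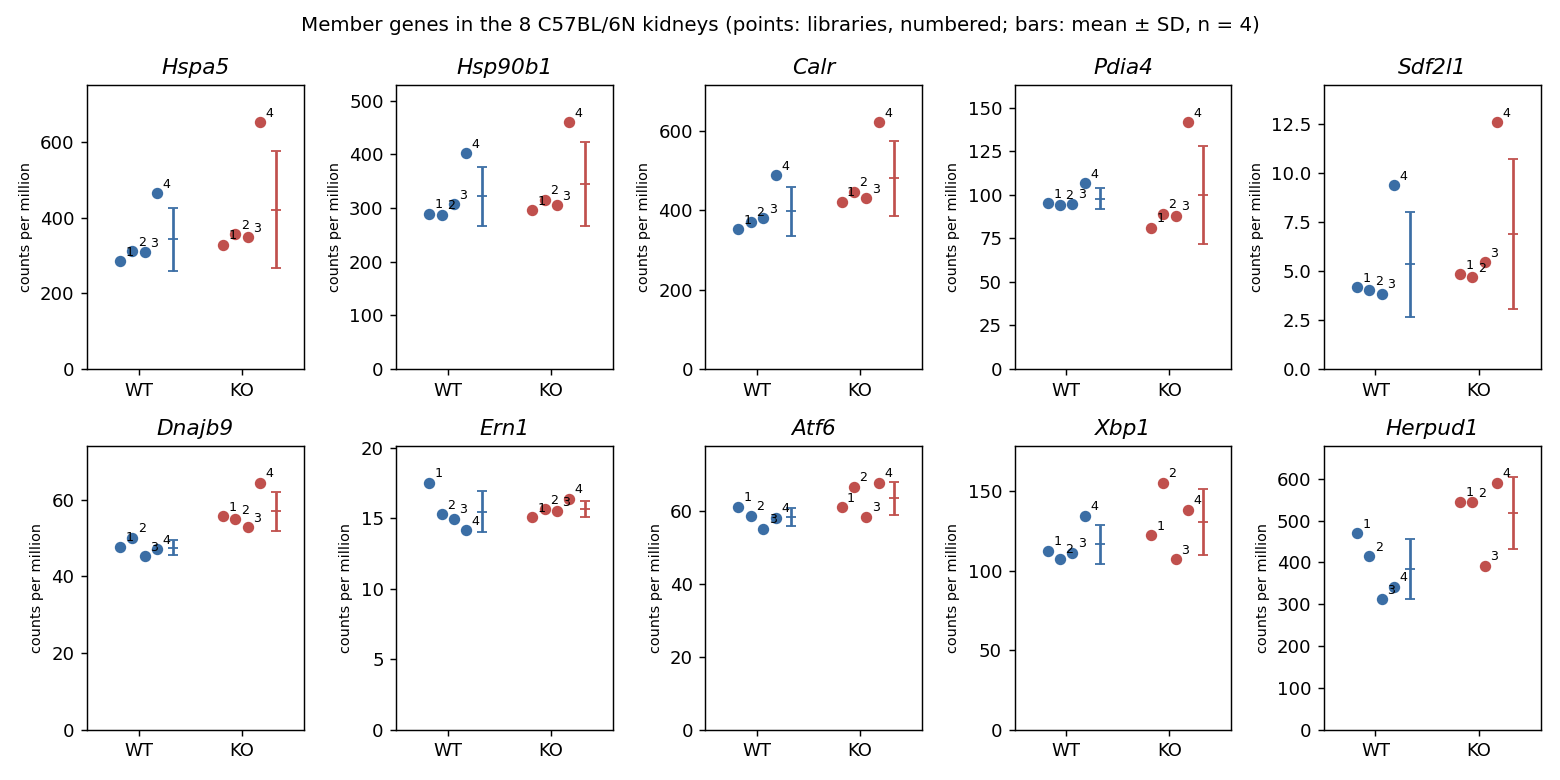
CPM of the 10 member genes in the 4 WT (blue) and 4 KO (red) C57BL/6N libraries, numbered by replicate, each panel on its own axis from 0, with bars for mean ± SD (n = 4). Replicate 4 of both genotypes stands above its group for Hspa5, Hsp90b1, Calr, Pdia4 and Sdf2l1, and the groups part only for Dnajb9.

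Among the co-chaperones, Dnajb9 read 47.7, 50.1, 45.3 and 47.1 CPM in WT replicates 1 to 4, against 55.8, 54.9, 52.8 and 64.5 CPM in KO replicates 1 to 4. All 4 KO libraries lay above all 4 WT libraries. The rise was 1.20-fold (log2 fold change 0.26, SE 0.07; edgeR adjusted p = 0.0358). It was 0.33 among E-titled mice and 0.18 among the others, on the log2 scale. The call was kept in 2 of the 8 fits that left out 1 library, those without KO replicate 3 and without WT replicate 2, with an adjusted p of 0.0326 to 0.0995 over the 8.

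The other co-chaperone gene, Sdf2l1, lies on the chromosome of Ehhadh, 4.63 megabases away (chromosome 16, 17130138 to 17132383, mm10). It read 4.16, 4.01, 3.85 and 9.38 CPM across the WT libraries, against 4.85, 4.68, 5.47 and 12.6 CPM across the KO libraries. One library of each group was more than double the rest, as the SD relative to the mean of 50.3% in WT and 55.4% in KO shows. The log2 fold change was 0.37 (SE 0.37; edgeR adjusted p = 0.59; 95% interval −0.45 to 1.18), so a difference of either sign was not resolved. It was −0.10 without KO replicate 4, 0.79 without WT replicate 4 and 0.32 without both.

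The chaperones and the disulfide isomerase showed the same layout. Hspa5 read 285, 311, 309 and 465 CPM across the WT libraries, against 329, 357, 348 and 653 CPM across the KO libraries. The groups overlapped through WT replicate 4, which was above 3 of the 4 KO libraries. Its log2 fold change of 0.30 (SE 0.22; 95% interval −0.18 to 0.78) did not pass in edgeR (adjusted p = 0.435), and it was 0.01 without KO replicate 4, 0.49 without WT replicate 4 and 0.19 without both. Hsp90b1 read 289, 288, 307 and 402 CPM across the WT libraries, against 296, 315, 305 and 460.2 CPM across the KO libraries. Apart from replicate 4 of each group, the libraries lay between 288 and 315 CPM. Its log2 fold change was 0.10 (95% interval −0.23 to 0.43; edgeR adjusted p = 0.734). It was −0.07 without KO replicate 4, 0.23 without WT replicate 4 and 0.05 without both.

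Calr read 352, 371, 379.6 and 489 CPM across the WT libraries, against 422, 447, 429.9 and 622 CPM across the KO libraries. WT replicate 4 lay above KO replicates 1 to 3, and the other 3 WT libraries lay below every KO library. The log2 fold change of Calr was 0.27 (SE 0.14; 95% interval −0.03 to 0.57), which did not pass in edgeR (adjusted p = 0.236). It was 0.12 without KO replicate 4, 0.39 without WT replicate 4 and, now passing, 0.24 without both (edgeR adjusted p = 0.0321). Pdia4 went the other way in 3 of 4 KO libraries. It read 94.99, 94.2, 94.9 and 107 CPM across the WT libraries, against 81.1, 89.0, 87.9 and 142 CPM across the KO libraries, so KO replicates 1 to 3 lay below every WT library and KO replicate 4 above them all. Its log2 fold change was 0.03 (95% interval −0.30 to 0.36; edgeR adjusted p = 0.921). It was −0.18 without KO replicate 4, 0.08 without WT replicate 4 and −0.14 without both.

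Neither of the sensor genes among the members passed the test. Ern1 read 17.5, 15.3, 15.0 and 14.2 CPM across the WT libraries, against 15.1, 15.7, 15.5 and 16.4 CPM across the KO libraries. Its KO libraries fell inside the WT range, and the 95% interval of its log2 fold change was −0.16 to 0.20 (edgeR adjusted p = 0.912). Atf6 read 61.1, 58.7, 55.1 and 58.1 CPM across the WT libraries, against 61.0, 66.7, 58.4 and 67.8 CPM across the KO libraries. The groups overlapped between 58.4 and 61.1 CPM, with a log2 fold change of 0.12 (SE 0.06; 95% interval −0.02 to 0.26; edgeR adjusted p = 0.249).

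Xbp1, the transcription factor spliced by IRE1, read 113, 108, 111 and 135 CPM across the WT libraries, against 122, 156, 107 and 139 CPM across the KO libraries. Both the lowest and the highest of the 8 libraries were KO. Its log2 fold change was 0.17 (95% interval −0.08 to 0.41; edgeR adjusted p = 0.38), and −0.01 and 0.32 in E-titled mice and in the others. Leaving out KO replicate 2 gave 0.07 and leaving out KO replicate 3 gave 0.25. Herpud1 read 471, 415, 312 and 342 CPM across the WT libraries, against 546, 544, 392 and 591 CPM across the KO libraries. KO replicates 1, 2 and 4 lay above every WT library and KO replicate 3 below WT replicates 1 and 2. The fitted difference of Herpud1, 1.35-fold (log2 fold change 0.43, SE 0.14; 95% interval 0.11 to 0.74), was the largest of the 10 and missed the threshold in edgeR (adjusted p = 0.0823). It passed in DESeq2 (adjusted p = 0.0267) and in edgeR with title form as a term (0.0327), and in edgeR without KO replicate 3 (0.025) or WT replicate 1 (0.0461). The other 6 fits without 1 library gave an adjusted p of up to 0.198.

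**Figure D2:**
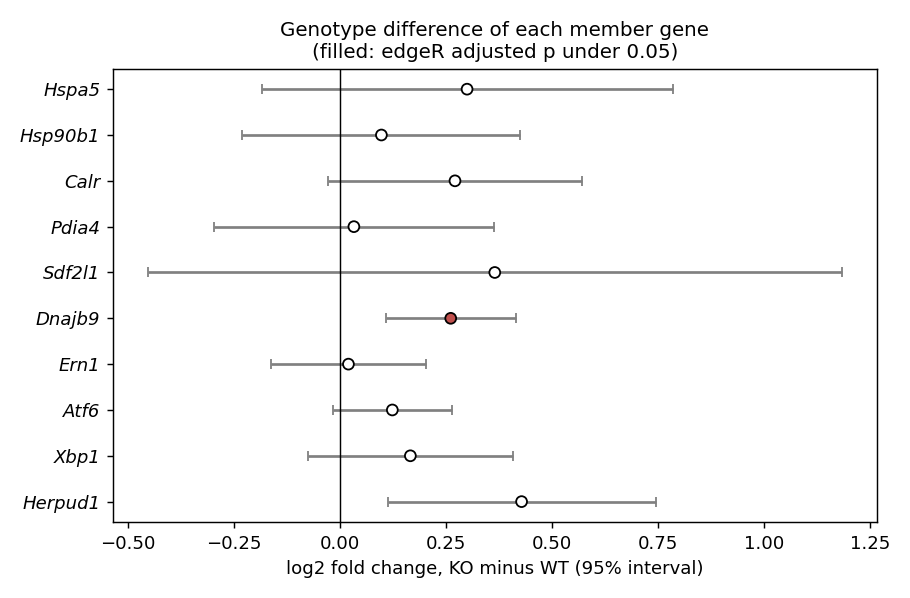
Fitted log2 fold change of each member gene, KO minus WT, with its 95% interval from edgeR's quasi-likelihood fit on 4 KO and 4 WT libraries; the filled point passed at an adjusted p under 0.05. Dnajb9 passed, at 0.26, while Sdf2l1 and Hspa5 have the widest intervals, reaching from −0.45 to 1.18 and from −0.18 to 0.78.

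The genotype difference was tested against title form for each member. Within-form log2 differences of Herpud1 were 0.56 in E-titled mice and 0.30 in the others, and those of Hspa5 were 0.33 and 0.20. For Pdia4 they had opposite signs, 0.15 and −0.15, and so they had for Ern1, 0.13 and −0.09. The interaction of genotype and title form in edgeR called 0 of 15547 genes (1004 at an unadjusted p under 0.05, none of them a member; no other tool was run for it), with an adjusted p of 0.793 to 0.995 for the 10 members.

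Replicate 4 was the highest library of both genotypes for Hspa5, Hsp90b1, Calr, Pdia4 and Sdf2l1. Their fitted genotype folds were 1.23, 1.07, 1.21, 1.02 and 1.29. A wide spread between animals was neither shared by all of these genes nor particular to them. In WT, the SD was 6.15% of the mean for Pdia4 and 18.6% for Herpud1, which is not among them. KO replicate 4 read 1.90 times the mean of the other 3 KO libraries for Hspa5, and WT replicate 4 read 1.54 times the mean of the other 3 WT libraries. For Sdf2l1 these ratios were 2.53 and 2.34, for Hsp90b1 1.51 and 1.36, and for Calr 1.44 and 1.33. For Pdia4 they were 1.65 and 1.13. Without the replicates numbered 4, the remaining libraries of each group differed little: Hspa5 lay between 329 and 357 CPM in KO and between 285 and 311 in WT. The replicate number is only a name, given in accession order, and does not pair the mice. Both are E-titled, as are KO replicate 3 and WT replicate 3, which did not read high.

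The sensors and Dnajb9 did not take part to the same extent. For Dnajb9 the ratios were 1.18 in KO and 0.989 in WT, for Atf6 1.09 and 0.997, and for Ern1 1.06 and 0.889. Herpud1 read 1.20 times the other KO libraries in KO replicate 4, but 0.857 times the other WT libraries in WT replicate 4. Xbp1 read 1.08 and 1.22. In KO, replicate 4 was the highest library for 9 of 10 members, where it was the highest for 30.8% of all tested genes. WT replicate 4 was the highest WT library for 6 of 10 members, against 28% of all genes, and both held for 5 members, against 10.9% of all genes. These counts were made after the values were seen and carry no test.

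**Figure D3:**
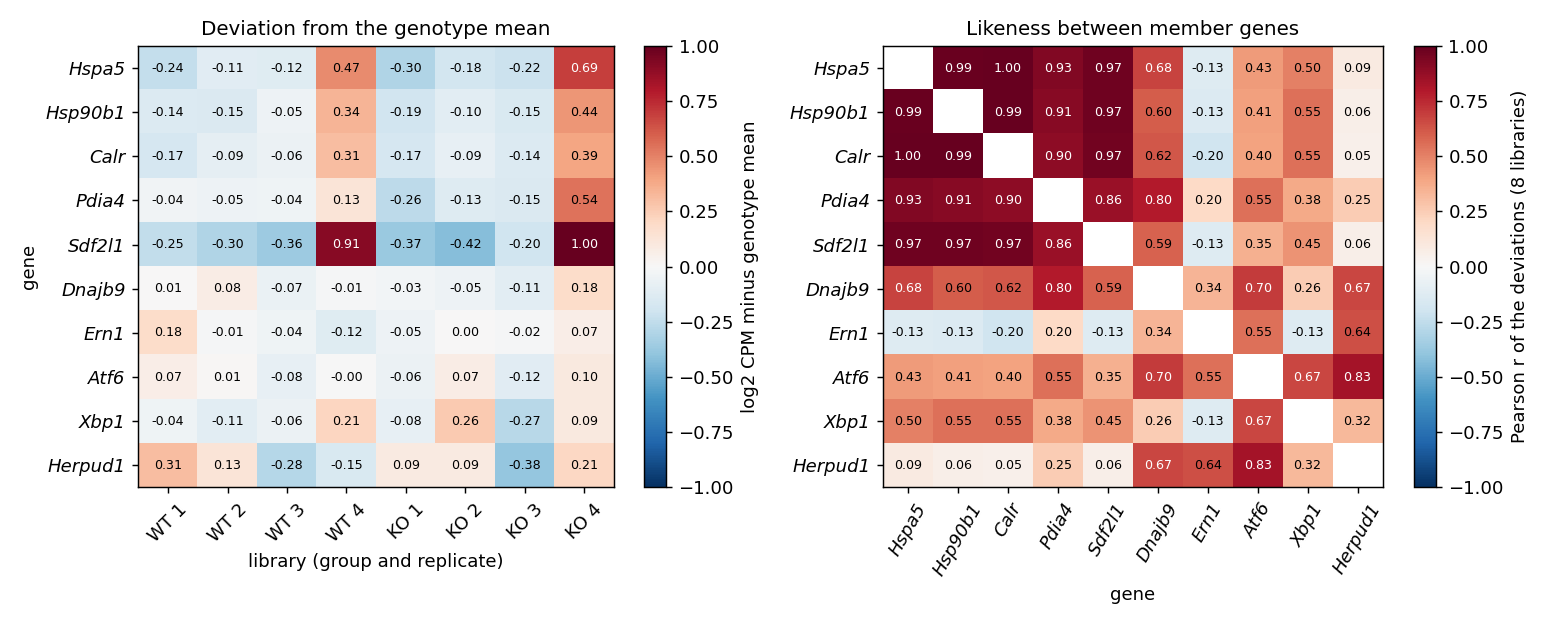
Left, log2 CPM of each member in each of the 8 C57BL/6N libraries minus its genotype mean (colour, number in each cell); right, Pearson r of these deviations between pairs of members over the 8 libraries. Columns WT 4 and KO 4 are high for Hspa5, Hsp90b1, Calr, Pdia4 and Sdf2l1, which form the block of high r at the upper left, and Herpud1 is most like Atf6 (0.83).

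After each genotype mean was subtracted, the 10 genes fell into likeness patterns that are described here with no test. The 8 libraries share a common scaling, and the labels do not say whether they were prepared together. Hspa5 was most like Calr (Pearson r = 0.995), Hsp90b1 (0.990) and Sdf2l1 (0.970), with Pdia4 at 0.927. It was less like Dnajb9 (0.677), Xbp1 (0.505) and Atf6 (0.426), and showed almost no likeness to Herpud1 (0.0925) or Ern1 (−0.129). Of the 45 pairs of members, 11 had an r over 0.8 and 5 an r under 0. The high values rested largely on the replicates numbered 4. Over the 6 libraries left without them, Hspa5 and Calr kept an r of 0.926, Hspa5 and Hsp90b1 read 0.613, Hspa5 and Pdia4 0.582, and Hspa5 and Sdf2l1 −0.268. Herpud1 was most like Atf6, with an r of 0.835 over 8 libraries and 0.846 over the 6.

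Among all tested genes, the 5 most like Hspa5 by this measure were Calr, Hyou1 (0.993), Hsp90b1, Lrrk2 (0.988) and Pdia6 (0.986). Hyou1 encodes a large ER chaperone that exchanges the nucleotide of BiP, Pdia6 a disulfide isomerase, and Lrrk2 a large cytosolic kinase. Without the replicates numbered 4 these read 0.776 for Hyou1, 0.608 for Lrrk2 and 0.783 for Pdia6. Of the 50 genes most like Hspa5, 3 were members and 8 were among the 87 tested genes of the pathway lists described next, which make up 0.56% of tested genes. Hyou1 read 1.68 times the other libraries in KO replicate 4 and 1.53 times in WT replicate 4.

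Other genes of the pathway were taken from 6 lists with 88 symbols, all found in the table and 87 tested. Of the 87, 5 rose and 0 fell in KO, which is 5.75% higher beside 6.32% of all tested genes, with a median log2 fold change of 0.05. DESeq2 called 8 of the list genes higher and 2 lower, beside 1301 higher and 1087 lower of 15244 genes. The PERK branch held the largest rise. Trib3, a pseudokinase gene induced by ATF4 and CHOP, went from 1.93 ± 0.597 CPM in WT to 4.52 ± 1.28 in KO (SD, n = 4 each; log2 fold change 1.21, SE 0.26; edgeR adjusted p = 0.0152). Eif2ak3, which encodes PERK itself, went from 36.5 ± 2.58 to 44.5 ± 2.24 CPM (log2 fold change 0.29, SE 0.07; adjusted p = 0.0196). The other 6 of the 8 genes of that branch did not pass. They include Ddit3, which encodes CHOP, at a log2 fold change of 0.29 (SE 0.16), and Atf4 at 0.12 (SE 0.13), both named here after their values were seen. The call of Trib3 was lost in edgeR when counts were thinned to the smallest library (log2 fold change 1.21; adjusted p = 0.0678), KO libraries being the deeper ones. Among E-titled mice alone, Trib3 was not called either (log2 fold change 1.16, adjusted p = 0.288 in edgeR). The call of Eif2ak3 was lost without WT replicate 3 (adjusted p = 0.061 in edgeR) and without both replicates 4 (0.064). It was also lost in E-titled mice alone (log2 fold change 0.40, adjusted p = 0.126) and in the other mice alone (0.18, adjusted p = 0.196).

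None of 22 other ER chaperones and folding enzymes passed in edgeR, with log2 fold changes from −0.19 to 0.23 and a median of 0.03. At the smallest p were Fkbp2, a prolyl isomerase gene, at −0.19 (SE 0.06; edgeR adjusted p = 0.0546), and Dnajc10, which encodes the BiP co-chaperone and reductase ERdj5, at 0.15 (SE 0.06; adjusted p = 0.104). DESeq2 called Fkbp2 (adjusted p = 0.0218). KO replicate 4 was the highest KO library for 16 of the 22, against 30.8% of all tested genes. WT replicate 4 was the highest WT library for 17, against 28% of all tested genes, and both held for 13, against 10.9%. Their ratio to the mean of the other 3 libraries had a median of 1.147 in KO (0.935 to 1.68) and 1.106 in WT (0.898 to 1.53).

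ER-associated degradation genes rose in 2 of 19, with a median log2 fold change of 0.02. Herpud2, a relative of Herpud1, went from 31.9 ± 1.45 to 37.6 ± 2.21 CPM (log2 fold change 0.24, SE 0.06; edgeR adjusted p = 0.0372). Ubxn4, an ER membrane protein that recruits the ATPase p97, went from 114 ± 4.99 to 130.1 ± 1.48 CPM (0.19, SE 0.05; adjusted p = 0.0424). Both calls depended on single libraries. That of Herpud2 was lost without any 1 library but KO replicate 4, and that of Ubxn4 without any 1 but WT replicate 4 (adjusted p in edgeR up to 0.102 and 0.117). Of 14 genes of the ER export coat, Sec24d rose (23.9 ± 1.20 to 29.4 ± 3.08 CPM; log2 fold change 0.30, SE 0.08; adjusted p = 0.0397). It encodes a cargo-binding coat subunit, and 5 of the 8 fits that left out 1 library lost its call (without KO 1, KO 2, WT 1, WT 2 or WT 3; edgeR adjusted p of up to 0.111).

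The remaining 2 lists held no called gene in edgeR. Of 8 tested genes of other sensors and cleavage proteases, the smallest p were those of Traf2, the adaptor of IRE1, with a log2 difference of 0.22 (SE 0.07; adjusted p = 0.0522), and Creb3, an ER-bound transcription factor, at 0.17 (SE 0.07; adjusted p = 0.133). Of 16 genes of the translocation machinery, those were Sec61a1, the channel subunit, at 0.17 (SE 0.06; adjusted p = 0.0901), and Ssr4 at 0.13 (SE 0.05; adjusted p = 0.125). DESeq2 called Traf2 (adjusted p = 0.0278) and Sec61a1 (0.049).

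The strain libraries read high for the chaperones. With TMM scaling over all 10 libraries, Hspa5 read 671 CPM in 129S2_SvPasCrl and 732 CPM in DBA_2J, beside 283 to 462 CPM in the 4 WT libraries and 325 to 649 in KO. Both strain libraries thus lay above every C57BL/6N library. Against the WT mean these are 2.01-fold and 2.19-fold higher levels, on log2 CPM with a prior count of 2. With 1 animal per strain there is no test and no replicate check.

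Hsp90b1 read 511 CPM in 129S2_SvPasCrl and 623 CPM in DBA_2J (WT 285 to 400.0 CPM), and Calr 650.2 and 777 CPM (WT 349 to 486 CPM). Both genes were above all 8 C57BL/6N libraries in both strains. Pdia4 read 157 and 153 CPM, where WT ran from 93.3 to 106 CPM. Sdf2l1 stood furthest from WT, at 17.1 CPM in 129S2_SvPasCrl (3.45-fold) and 15.2 CPM in DBA_2J (3.07-fold) beside 3.83 to 9.33 CPM in WT. Those 5 genes are the ones for which replicate 4 was the highest library of both genotypes. In 129S2_SvPasCrl they were the only members above all 8 C57BL/6N libraries, while in DBA_2J 8 of 10 members were, so the high values there were not particular to them.

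The other members differed between the strains. Atf6 read 52.3 CPM in 129S2_SvPasCrl, below the WT range of 54.8 to 60.7 CPM, and 76.9 CPM in DBA_2J, above it. Herpud1 read 498 CPM in 129S2_SvPasCrl, above the WT libraries (310.3 to 468 CPM), and 372 CPM in DBA_2J, among them. Dnajb9 was above the WT range (45.002 to 49.6 CPM) in both, at 57.9 and 69.3 CPM. Ern1 read 17.0 CPM in 129S2_SvPasCrl, within the WT range of 14.1 to 17.4, and 20.05 CPM in DBA_2J. Xbp1 read 141 and 137 CPM, over the highest WT library at 134 CPM but under the highest KO library at 154 CPM.

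In 129S2_SvPasCrl 8 of 10 members were above the 4 WT libraries and 1 below, where 32.5% of all tested genes were above and 32.1% below. In DBA_2J 9 were above and 0 below, against 35.1% above and 37.3% below for all genes. The median log2 difference of the members from the WT mean was 0.54 in 129S2_SvPasCrl and 0.61 in DBA_2J, beside 0.00 and −0.02 over all tested genes. Of the 22 other chaperones and folding enzymes, 13 in 129S2_SvPasCrl and 19 in DBA_2J were above all 8 C57BL/6N libraries, as were 24.3% and 28.3% of all tested genes. The same held for 41 (47.1%) and 63 (72.4%) of the 87 tested genes of the pathway lists, which include those 22. Both strains are set against the same WT libraries.

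**Figure D4:**
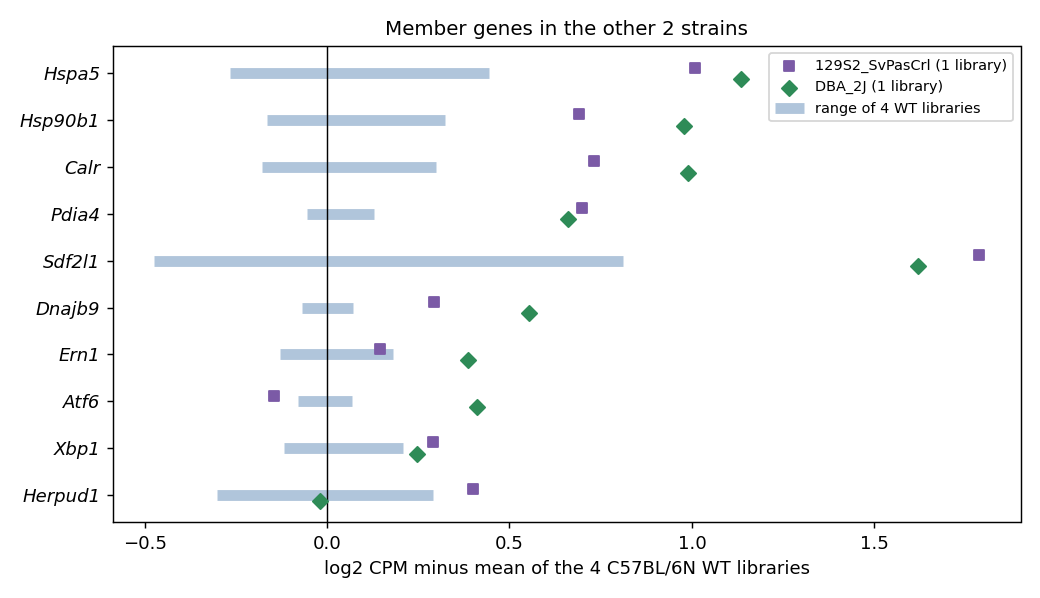
Log2 CPM of each member in the 129S2_SvPasCrl library (squares) and the DBA_2J library (diamonds) minus the mean of the 4 C57BL/6N WT libraries, whose range is the blue bar. Both strains lie to the right of the bar for Hspa5, Hsp90b1, Calr, Pdia4, Sdf2l1, Dnajb9 and Xbp1, they part for Atf6, and DBA_2J lies inside the bar for Herpud1 at −0.02.

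Markers of cells rich in these chaperones were read beside the results. The sum of 7 plasma cell genes (Igj, Mzb1, Derl3, Pou2af1, Tnfrsf17, Prdm1 and Irf4) was 15.0 to 29.0 CPM in KO and 10.3 to 22.2 in WT, and 11.5 and 7.32 CPM in 129S2_SvPasCrl and DBA_2J. Of the 6 tested, 0 passed in edgeR, and Tnfrsf17 was under 1 CPM in all 8 C57BL/6N libraries. KO replicate 4 read 23.0 CPM, below KO replicates 1 and 3, and WT replicate 4 was the highest WT library. Derl3 is also in the ER-associated degradation list and holds an exact ERSE, so this sum is not separate from the pathway. It ran from 0.977 to 4.33 CPM in KO and from 0.987 to 4.83 CPM in WT. Of 4 pancreatic acinar genes, Cpa1, Pnlip and Prss2 were under 1 CPM in those 8 libraries, and the sum, nearly all Cela1, was 39.6 to 52.9 CPM in them and 91.6 and 76.8 CPM in the strain libraries.

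The 4 injured tubule genes (Havcr1, Lcn2, Vcam1 and Sox9), of which 3 rose in KO, summed to 69.7 to 112 CPM in KO and 10.2 to 15.1 CPM in WT. Replicate 4 was the highest of both groups, at 112 and 15.1 CPM. In the strain libraries the sum was 71.8 CPM in 129S2_SvPasCrl and 13.9 CPM in DBA_2J, both of which read high for Hspa5.

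Markers of nephron segments and macrophages also moved. Called lower in KO in edgeR were Lrp2, 1 of the 5 proximal tubule genes (log2 fold change −0.42), Slc12a1 and Slc12a3, 2 of 3 genes of the thick ascending limb and distal tubule (−0.44 and −0.39), both collecting duct genes, Aqp2 (−1.09) and Atp6v1b1 (−0.57), and Csf1r, 1 of 4 macrophage genes (−0.64). The summed macrophage genes read 48.2 to 60.2 CPM in KO, 70.2 to 75.4 in WT, and 108 and 112 CPM in 129S2_SvPasCrl and DBA_2J. Csf1r made up most of this sum in KO and WT, with means of 37.0 and 57.7 CPM. The other macrophage genes, Cd68 (0.65), Emr1 (0.05) and C1qa (0.14), had log2 fold changes above 0 and were not called. The 3 thick ascending limb and distal tubule genes summed to 2633 to 3846 CPM in KO and 3358 to 3880.2 CPM in WT. This sum was highest in replicate 4 of each genotype. The proximal tubule sum was highest in replicate 4 among KO libraries, at 9843 CPM, and in replicate 3 among WT libraries. The collecting duct sum was 177 to 204 CPM in KO and 263 to 537 CPM in WT. The part of any of these markers in the results was not tested.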

How the data were processed

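Per the labels' protocols, polyadenylated kidney RNA was sequenced as single-end reads. The submitters' processing notes name STAR, featureCounts, edgeR and the builds mm10 and GRCm38. Reads were assigned with featureCounts 1.5.2, per the file headers, to exons grouped by gene, using primary alignments and no strand option, and a read over several genes was given to each. The authors deposited raw counts per library, a joined matrix (equal to the single tables in all 10 columns) and log2 values for 13645 genes, which equalled log2 CPM with TMM scaling to within 4.97e-14.

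KO and WT counts went into edgeR 4.0.16 under R 4.3.3. The steps were filterByExpr, TMM factors, a quasi-likelihood F test with genotype alone, and Benjamini-Hochberg adjustment over 15547 genes, with calls under 0.05. The standard error is the log2 fold change divided by the square root of F, and 95% intervals use the fit's degrees of freedom. The fit was checked on simulated counts drawn separately for each gene and library, with the same spread for all genes. That check does not cover a library that reads high for many genes together. CPM used the scaling of the 8 C57BL/6N libraries, and of all 10 beside the strain libraries and for marker sums, which moves values slightly. Likeness used log2 CPM with a prior count of 2, and within-form differences log2(CPM + 0.25). Alternatives were DESeq2 1.42.0, limma 3.58.1 (voom, and the deposited log2 values), RLE scaling, no filter, counts thinned to the smallest library, title form as a term, each title form alone, all 10 libraries and single libraries left out. Leaving out both replicates 4 was chosen after seeing the data. Promoter windows come from a RefSeq table of GRCm38.p6.

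Replicate numbers follow accession order and name samples only. P-values set a fitted difference against the spread between these animals. The members, lists and tests were chosen with earlier results of these data known. Named genes are Ehhadh, the members, up to 4 called genes per list by smallest p (or the 2 of smallest p where none was called) and the 5 genes most like Hspa5. Others are said to be named after their values were seen.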

Additional observations from a re-analysis of the deposited data

Results flagged for a closer look

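In each genotype's 4 libraries, the gap of the outermost library to its neighbour was set against the whole range of log2 CPM for each member, which makes 20 groups, of which chance flags about 1 in 20. In KO, replicate 4 stood apart for Hspa5 (653.3 CPM, a gap of 0.882 of the range), Hsp90b1 (460.2 CPM, 0.856), Calr (622.4 CPM, 0.853), Pdia4 (141.7 CPM, 0.833) and Sdf2l1 (12.62 CPM, 0.844). In WT, replicate 4 stood apart for Pdia4 (106.7 CPM, 0.929) and Sdf2l1 (9.382 CPM, 0.913). These 7 values come from 2 mice.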

How the results depend on the processing

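No paired analysis was possible because the replicate numbers follow accession order and the labels tie no KO mouse to a WT mouse. The counts called higher and lower in KO were 982 and 728 of all tested genes, 1 and 0 of the members and 5 and 0 of the pathway lists. Leaving out 1 library at a time gave 610 to 916 and 381 to 722 genes, 0 to 2 members higher, and 1 to 4 list genes higher and 0 to 1 lower. E-titled mice alone gave 92 and 51 genes, 0 members and 0 list genes. The other mice alone gave 924 and 799 genes, with 2 members (Calr and Herpud1) and 2 list genes higher. DESeq2 called 1301 and 1087 genes, with 2 members and 8 list genes higher and 2 list genes lower. Title form as a term gave 1157 and 893 genes, with 2 members higher and 1 list gene lower. Counts thinned to the smallest library gave 775 and 596 genes, with 2 list genes higher. Without both replicates 4, an alternative chosen after seeing the data, 894 and 706 genes were called. Of the list genes 3 were then higher and 1 lower, and the 1 member called was Calr (log2 fold change 0.24; edgeR adjusted p = 0.0321). Over 19 alternatives Dnajb9 was called in 10 (log2 fold change 0.17 to 0.34, adjusted p 0.0135 to 0.232), Herpud1 in 5 and Calr in 2. Of the values for single named genes under alternatives, 403 kept direction and side of the threshold, 44 lost a call, 12 gained one and 16 changed sign, none of them a call. Pdia4 changed sign with limma-voom (−0.00276), limma on the deposited values (−0.00143), mice without an E title (−0.156) and without both replicates 4 (−0.139). Ern1 did so in mice without an E title (−0.0904) and without both replicates 4 (−0.0418), and Xbp1 in E-titled mice (−0.00058). The other changes of sign came from leaving out 1 library, which gave log2 fold changes from −0.184 to 0.122 for Pdia4, −0.0182 to 0.0858 for Ern1, −0.0735 to 0.226 for Hsp90b1, −0.104 to 0.794 for Sdf2l1, −0.00168 to 0.407 for Hyou1 and −0.131 to 0.0643 for Lrrk2. The cause of these shifts was not tested.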

Other observations

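Of the pathway lists, 72 genes had a promoter window, and 7 of them held an exact ERSE: Canx, Creld2, Derl3, Dnajc3, Ero1b, Pdia6 and Syvn1. Dnajb11, which encodes the BiP co-chaperone ERdj3, held an exact ERSE-II. Over all genes, 21 tested genes had a window with ERSE, of which 1 was called higher and 1 lower in KO (edgeR, adjusted p under 0.05), with a median log2 fold change of 0.10. The 8 tested genes with ERSE-II held no called gene and had a median of 0.03. These counts cover the 11418 tested genes whose symbol has a window. They include the members Hspa5, Hsp90b1, Calr and Herpud1 and genes of the pathway lists. The medians are therefore not separate from the results of those genes.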
